A study of Mus musculus with 8 samples.

Results

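Folate one-carbon and serine metabolism was followed through 10 genes of the mouse intestinal crypt. They are Mthfd1, Shmt1, Aldh1l1, Mthfd2, Shmt2, Aldh1l2, Phgdh, Psat1, Psph and Sdsl. They were picked by name for their function out of the 55114 genes in the table, with their values in control and Mex3a KO mice already known, so the differences between genotypes given for them are a description. Counts of their calls stand beside the share of all genes called, and nothing is read from them. All 10 passed the filter on low counts that left 16109 genes for testing.

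RNA was sequenced from crypts that EDTA and shaking had released from the intestines of 4 Mex3a KO mice (Mex3a-/-) and 4 littermate controls (labelled Ctrl), all C57BL/6 and 8 weeks old. Mex3a codes for an RNA-binding protein, and the comparison asked which transcripts differ without it. The deletion was constitutive and removed exon 1 and part of exon 2, so other cells of the mouse lacked Mex3a as well as the crypt epithelium. The labels give no sex, litter or day of collection for a mouse.

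Folate coenzymes carry single carbon units that are used to make purines, thymidylate and methionine. Serine is the main donor of those carbons. It is made from a glycolytic intermediate in 3 steps (Phgdh, Psat1, Psph), and serine hydroxymethyltransferases pass its carbon to tetrahydrofolate in the cytosol (Shmt1) and in mitochondria (Shmt2). Mthfd1 and Mthfd2 then interconvert the loaded folates in the cytosol and in mitochondria, Aldh1l1 and Aldh1l2 burn the carbon to carbon dioxide in the same respective compartments, and Sdsl belongs to the serine dehydratase family, which breaks serine down. Proliferating cells, such as those of the crypt, draw heavily on this pathway for nucleotides.

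Because MEX3A binds RNA, the 3′ UTR of 1 GENCODE M21 transcript per gene was searched for the MEX3A recognition element, a short degenerate motif. It occurred at least once in 6 of the 10 genes: Shmt1 with 4 matches, Aldh1l1 with 1, Shmt2 with 1, Aldh1l2 with 9, Psat1 with 5 and Psph with 3. Mthfd1, Mthfd2, Phgdh and Sdsl had 0 matches. Of 13034 tested genes with a 3′ UTR, 75.2% had at least 1 match, with a median of 2, so a match is common and says nothing on its own about binding. Matches can overlap, and a long 3′ UTR such as that of Aldh1l2 (3129 bases) has room for more of them than a short one such as that of Phgdh (133 bases). The sequences below show the only match of Aldh1l1 (chr6:90599462-90599488, plus strand), the first match of Shmt1 (chr11:60788533-60788560, minus strand) and the only match of Shmt2 (chr10:127517648-127517675, minus strand), on GRCm38 and written 5′ to 3′ with the matched bases in capitals. They belong to the gene with the widest gap between genotypes and to the cytosolic and mitochondrial serine hydroxymethyltransferases.
Aldh1l1: acaatgGTAGCCTGGGGTCTAcagcag
Shmt1: atacacAGAGAATTTTGTTTTAaagaaa
Shmt2: agggagGGAGGCCTTCCATTTAgggcaa

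RefSeq promoters (GRCm38.p6, from 250 bases before to 50 after a start) were found for 8 of the 10 genes, not for Aldh1l2 and Sdsl. On either strand, 0 of them held TGATGCAA (a joint ATF4 and C/EBP site, in 0.895% of 32851 promoters), CACGTG (an E-box, in 7.15%), TTTGGCGC (an E2F site, in 0.514%) or TTTCGCGC (another E2F site, in 0.323%). This says only that these letters were not in these windows.

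The 8 libraries held 20324184 to 30654105 counts, and mitochondrial transcripts took 5.63% to 11.6% of them. Mex3a had 236 to 328 counts in the controls and 6 to 28 in the KO libraries, which was the 1 change past the adjusted threshold among 16109 genes (log2 fold change -4.43, SE 0.43, adjusted P = 0.0310 by edgeR's quasi-likelihood test, or 0.126 once same-numbered libraries were fitted as blocks). That is 0.00621% of the genes tested. Replicates 1 and 2 of both genotypes carried Y-chromosome transcripts and replicates 3 and 4 carried Xist, so values are also given within these pairs. Control replicate 1 stood apart in its Paneth cell markers, with a summed level of 43901 CPM (counts scaled to a common library size) against 7390 to 25369 in the other 7 libraries. Nothing in the sources used here names separate cultures or batches beyond the mice themselves.

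Per base of gene length, the 10 genes covered a wide range. FPKM values, which divide counts by gene length and library size, averaged 48.1 ± 4.18 (SD, n = 8) for Mthfd1, 37.7 ± 4.53 for Shmt1, 35.2 ± 5.90 for Shmt2 and 33.8 ± 5.86 for Sdsl. These 4 formed the upper group, and their ranges overlapped from neighbour to neighbour. Aldh1l1 (16.4 ± 4.44), Phgdh (15.1 ± 2.10) and Mthfd2 (11.2 ± 1.13) came next in FPKM, with overlapping ranges, and every library had less Aldh1l1 than any library had Sdsl. Psat1 (6.35 ± 0.719), Psph (2.13 ± 0.439) and Aldh1l2 (0.383 ± 0.310) followed, and each of these ranges lay clear of the one before it. The order of some neighbours differed between the genotype means. Aldh1l1 was below Phgdh in every control (means 12.8 against 15.8 FPKM) and above it in every KO mouse (20.1 against 14.4). Sdsl was above Shmt2 in the control mean (38.0 against 35.4), though only in control replicates 3 and 4. In KO it was below Shmt2 (29.5 against 35.1). Shmt1 too was above Shmt2 in controls (40.7 against 35.4). It was slightly below in the KO mean (34.7 against 35.1), though only in KO replicates 1 and 2. The enzymes of serine synthesis fell in FPKM in the order of their steps, from Phgdh to Psat1 to Psph.

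**Figure D1:**
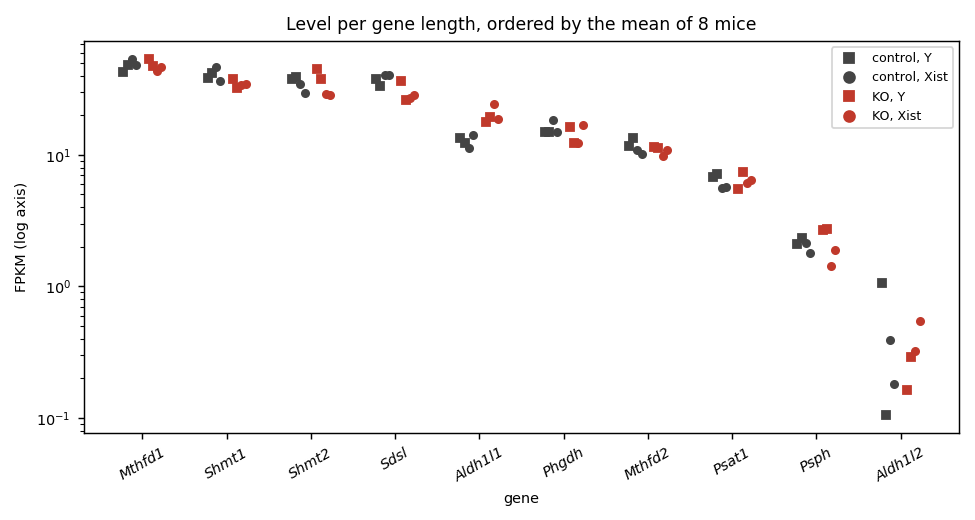
FPKM of each gene in each mouse on a log axis, with genes ordered by the mean of 8 mice, grey for controls, red for KO, squares for libraries with Y transcripts and circles for libraries with Xist. Mthfd1, Shmt1, Shmt2 and Sdsl sit at the top and Aldh1l2 at the bottom, with means from 48.1 down to 0.383.

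Each cytosolic folate enzyme has a mitochondrial counterpart, and their FPKM values were set against each other within each mouse. Mthfd1 exceeded Mthfd2 in 8 of 8 mice, by 4.28-fold on average (3.58 to 4.95). Aldh1l1 exceeded Aldh1l2 in 8 of 8 mice, by 38.4-fold (11.6 to 67.8), with the smallest ratio in control replicate 1. Aldh1l2 is so low that this size depends on the pseudocount of 0.1 FPKM: it was 12.5-fold with a pseudocount of 1 and 52.2-fold on counts per kilobase. An exact two-sided sign-flip permutation test of the log2 ratios gave P = 0.0078125 for both pairs, the smallest value that 8 mice allow, and 0.0117 after adjustment over the 3 pairs. The test takes the 8 mice as independent. With the replicate numbers as units, it could not reach the threshold of 0.05. Shmt1 and Shmt2 stood close together, with Shmt1 the higher in 6 of 8 mice by 1.08-fold (0.833 to 1.33), and the same exact test gave P = 0.227. This ratio split by library, at 0.833 to 1.06 in the Y libraries and 1.19 to 1.33 in the Xist libraries. Both ratios below 1 were those of KO replicates 1 and 2 (0.833 and 0.849), beside 1.01 and 1.06 in the controls with Y transcripts. FPKM counts all isoforms of a gene over 1 length, so a ratio between genes also carries any error in those lengths.

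Among the cytosolic folate enzymes, Aldh1l1 was the gene that set the genotypes apart. Aldh1l1, 10-formyltetrahydrofolate dehydrogenase (ENSMUSG00000030088, chr6:90486427-90600203, plus strand), removes carbon units from the cytosolic folate pool. In CPM scaled by trimmed mean of M values, it was 61.4, 55.5, 51.1 and 64.8 in control replicates 1 to 4. In KO replicates 1 to 4 it was 79.8, 87.7, 111 and 85.3. All 4 KO mice lay above all 4 controls, with KO replicate 3 the highest. Means were 58.2 ± 6.10 and 90.9 ± 13.6 CPM (SD, n = 4), a log2 fold change of 0.64 (SE 0.12) or 1.56-fold. The mean went from 58.5 to 83.8 CPM in the libraries with Y transcripts and from 57.9 to 98.0 in those with Xist. Under 15 other settings on the same libraries the log2 fold change of Aldh1l1 was 0.53 to 0.70. Since all 4 KO mice lay above all 4 controls, leaving out 1 library could not reverse its direction.

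Mature enterocyte markers also averaged higher in the KO crypts, and Aldh1l1 was read beside them. The summed level of 10 enterocyte markers was 1427 to 4104 CPM in controls and 2394 to 9925 in KO, with 10 of 10 fold changes positive and the highest sum, as for Aldh1l1, in KO replicate 3. By replicate number the enterocyte sums were 1925, 1427, 2152 and 4104 CPM in controls and 2394, 2955, 9925 and 5992 in KO. The 5 ileum markers summed to 276 to 625 CPM in controls and 635 to 1148 in KO, and the 5 stem cell markers to 4244 to 4977 and 3151 to 3919, with no overlap between genotypes in either. At an unadjusted P under 0.05, edgeR called 3 of 10 enterocyte, 5 of 5 ileum and 4 of 5 tested T cell markers higher, and 3 of 5 stem cell markers lower, beside 5.33% and 3.05% of all genes tested. The 6 T cell markers, with sums of 7.62 to 30.5 CPM in controls and 17.3 to 69.5 in KO, were also highest in KO replicate 3, and 0 markers of any of these 4 lists were at 0 counts. Other marker lists were examined as well. At the same threshold goblet markers had 2 of 6 higher and 1 lower, and enteroendocrine markers 1 of 6 higher. Proximal intestine markers had 1 of 6 lower, and Paneth markers had 0 called with 6 of 6 fold changes negative. The part of any of these markers in the Aldh1l1 difference was not tested. In bulk RNA, fewer cells of a type and less RNA per cell cannot be told apart.

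**Figure D2:**
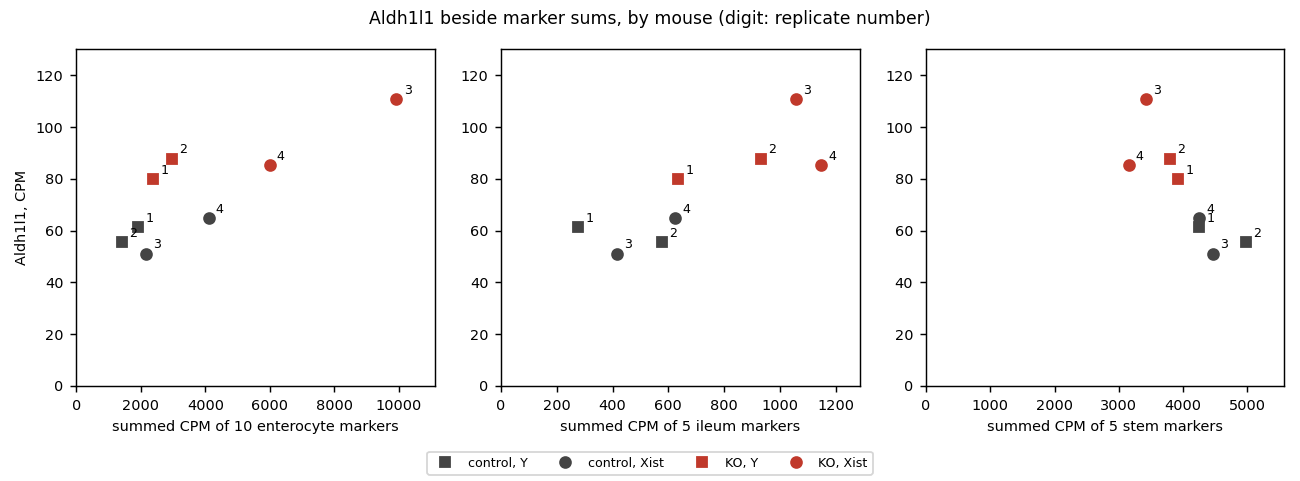
Aldh1l1 in CPM against the summed CPM of the enterocyte, ileum and stem cell markers in each of 8 mice, both axes from 0, with the replicate number beside each point. Aldh1l1 and the ileum and stem cell sums do not overlap between genotypes, the enterocyte sums do, and KO replicate 3 is the highest in both Aldh1l1 (111 CPM) and the enterocyte sum (9925).

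Shmt1, the cytosolic serine hydroxymethyltransferase (ENSMUSG00000020534, chr11:60788104-60811718, minus strand), was lower in KO on average. Its CPM was 151, 163, 180.3 and 142 in controls and 145, 125, 134 and 136 in KO. KO was the lower in 4 of 4 same-numbered pairs, and the groups overlapped through control replicate 4 and KO replicate 1. Means of 159 ± 16.6 and 135 ± 8.26 CPM (SD, n = 4) gave a log2 fold change of -0.24 (SE 0.088). The means went from 157 to 135 CPM in the Y libraries and from 161 to 135 in the Xist libraries. The opposite-strand gene Smcr8 shares 184 bases with it and had 834 to 1179 counts, and the strand setting of the counting is not given in the sources used here.

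Mthfd1, which carries the cytosolic dehydrogenase, cyclohydrolase and synthetase activities in 1 protein (ENSMUSG00000021048, chr12:76255298-76319803, plus strand), had nearly the same mean in both genotypes. It was 192, 217, 239.9 and 216 CPM in controls and 239.8, 212, 194 and 207 in KO. Means were 216 ± 19.5 and 213 ± 19.2 CPM (SD, n = 4), a log2 fold change of -0.02 (SE 0.092). The mean went opposite ways, from 204 to 226 CPM in the Y libraries and from 228 to 200.5 in the Xist libraries.

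Of the mitochondrial enzymes, none set the genotypes apart by more than its spread. Shmt2, the mitochondrial serine hydroxymethyltransferase (ENSMUSG00000025403, chr10:127517123-127522444, minus strand), was 120.1, 123, 108 and 93.3 CPM in controls and 139.8, 118, 90.1 and 88.7 in KO. The spread within each genotype was wide, with replicates 1 and 2 high and 3 and 4 low in both. Means were 111 ± 13.5 and 109 ± 24.5 CPM (SD, n = 4), a log2 fold change of -0.02 (SE 0.16). The mean went from 121 to 129 CPM in the Y libraries and from 101 to 89.4 in the Xist libraries.

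Mthfd2, the mitochondrial dehydrogenase and cyclohydrolase (ENSMUSG00000005667, chr6:83305691-83325908, minus strand), was 41.5, 47.2, 37.8 and 35.8 CPM in controls and 39.8, 39.1, 34.1 and 37.9 in KO. Of these 4 KO values, 3 fell inside the control range. Its log2 fold change was -0.11 (SE 0.099), or -0.02 without control replicate 2, -0.06 without KO replicate 3 and -0.16 without control replicate 4, with means of 44.4 and 39.5 CPM in the Y libraries and 36.8 and 36.0 in the Xist libraries. The gene overlaps 1 transcript model on its own strand, Gm43890, which shares 2799 bases with its span and had 5 to 32 counts.

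Aldh1l2, the mitochondrial counterpart of Aldh1l1 (ENSMUSG00000020256, chr10:83487450-83534140, minus strand), was nearly silent, at 17 to 176 counts a library. Controls had 8.13, 0.794, 2.93 and 1.38 CPM and KO mice 1.22, 2.17, 2.42 and 4.09. Control replicate 1 was the highest of all and control replicate 2 the lowest, so the control coefficient of variation was 101%. The log2 fold change was -0.41 (SE 0.66) and became 0.55 when control replicate 1 was left out. It was 0.02 when same-numbered libraries were fitted as blocks, so these data fix no direction. The mean went from 4.46 to 1.70 CPM in the Y libraries and went from 2.15 to 3.26 in the Xist libraries. Its opposite-strand neighbour D10Wsu102e, with 1248 to 1669 counts, shares 1056 bases with it, so some of its few counts may belong there.

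Control replicate 1 was also high in some genes of the ATF4 stress response, the programme that induces Aldh1l2, Mthfd2 and the serine synthesis genes in other settings. It was the highest of 8 libraries for 10 of 27 such genes that were tested, where the others led for 0 to 4, and it was the highest for 17.3% of all genes tested. The other 17 were higher elsewhere, and Pck2, the mitochondrial phosphoenolpyruvate carboxykinase, was lowest there (66.7 CPM against 73.2 to 93.1). Among those highest in this library, Nupr1, a stress-induced chromatin protein, had 173 CPM against 38.3 to 65.2 elsewhere, and Chac1, which degrades glutathione, 7.86 against 1.34 to 3.49. Phgdh, Psat1 and Mthfd2 were not at their highest there.

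**Figure D3:**
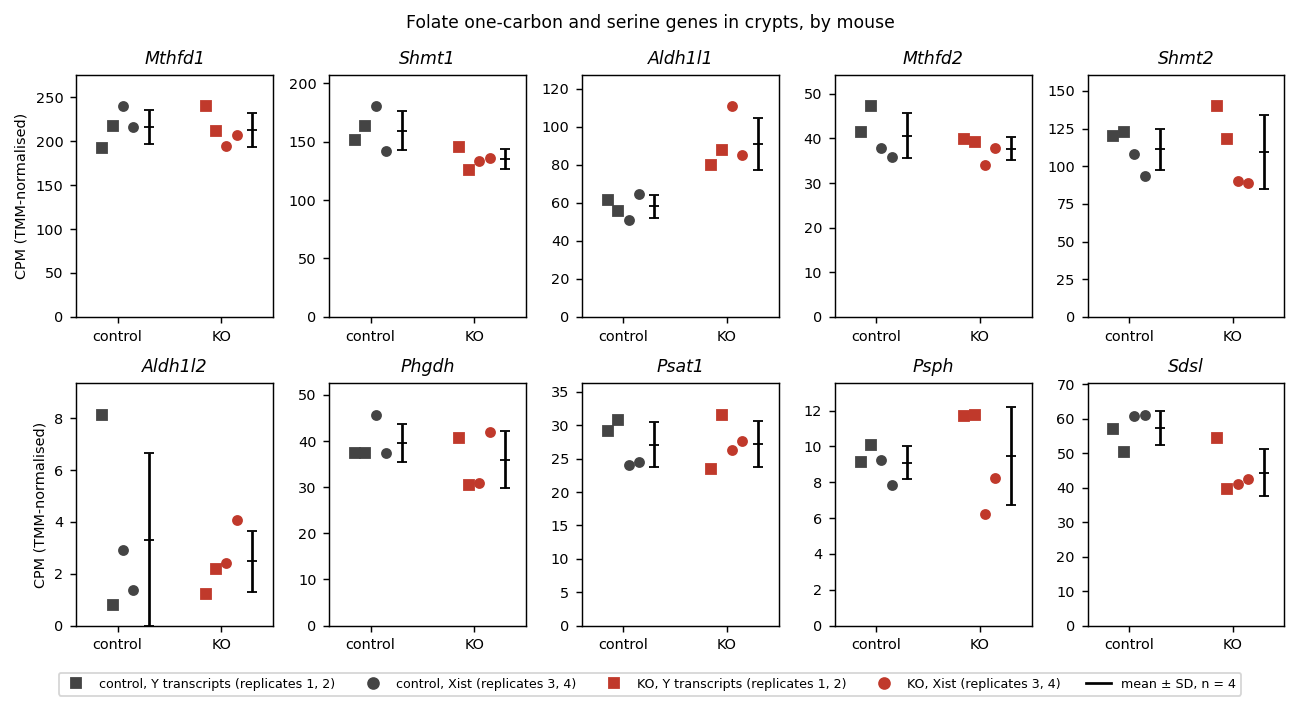
CPM of the 10 genes in each mouse, with axes from 0, controls in grey, KO in red, squares for libraries with Y transcripts, circles for those with Xist, and bars for the mean ± SD of 4 mice. Aldh1l1 is the 1 gene whose genotypes do not overlap, and Aldh1l2 is led by control replicate 1 at 8.13 CPM.

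The serine synthesis genes differed little between genotypes. Phgdh, which commits 3-phosphoglycerate to serine (ENSMUSG00000053398, chr3:98313170-98339990, minus strand), was 37.5, 37.5, 45.7 and 37.3 CPM in controls and 40.6, 30.4, 30.9 and 41.99 in KO. Control replicates 1, 2 and 4 were almost identical, while the KO mice formed a high and a low pair that crossed the Y and Xist split. Its log2 fold change was -0.13 (SE 0.13), and -0.22 to -0.05 with 1 library left out, the ends without KO replicate 4 and control replicate 3, with means of 37.5 and 35.5 CPM in the Y libraries and 41.5 and 36.4 in the Xist libraries. Its pseudogenes had 0 counts.

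Psat1, the transaminase of the second step (ENSMUSG00000024640, chr19:15904678-15947337, minus strand), was 29.1, 30.7, 24.0 and 24.6 CPM in controls. It was 23.4, 31.5, 26.2 and 27.6 CPM in KO. Both the highest and the lowest value were KO, around means of 27.1 ± 3.32 and 27.2 ± 3.39 CPM (SD, n = 4). The mean went from 29.9 to 27.5 CPM in the Y libraries and from 24.3 to 26.9 in the Xist libraries.

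Psph, the phosphatase that releases serine (ENSMUSG00000029446, chr5:129765558-129787449, minus strand), was 9.15, 10.1, 9.23 and 7.85 CPM in controls and 11.7, 11.8, 6.23 and 8.21 in KO. KO replicates 1 and 2 lay above every control and KO replicate 3 below, so the KO coefficient of variation was 28.7% against 10.2% in controls. The log2 fold change was 0.06 (SE 0.21), and the means went opposite ways, from 9.62 to 11.7 CPM in the Y libraries and from 8.54 to 7.22 in the Xist libraries. Cct6a on the opposite strand, with 4623 to 5646 counts, shares 452 bases with it.

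Sdsl, serine dehydratase-like (ENSMUSG00000029596, chr5:120458186-120472810, minus strand), was lower in KO on average. It was 57.1, 50.5, 60.9 and 61.1 CPM in controls and 54.3, 39.5, 40.9 and 42.6 in KO. KO replicates 2 to 4 lay below every control, and KO replicate 1 lay inside the control range. KO was the lower in 4 of 4 same-numbered pairs. Means were 57.4 ± 4.98 and 44.3 ± 6.78 CPM (SD, n = 4), a log2 fold change of -0.37 (SE 0.11). The means went from 53.8 to 46.9 CPM in the Y libraries and from 61.0 to 41.7 in the Xist libraries.

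Counted over the 10 genes, edgeR put 1 above (Aldh1l1) and 2 below (Shmt1 and Sdsl) at an unadjusted P under 0.05, where 5.33% and 3.05% of all genes tested were called. The call of Shmt1 was lost without control replicate 2, control replicate 3 or KO replicate 2. The count at an adjusted P under 0.05 was 0 of 10 with edgeR, 0 with limma on FPKM (0.0124% of all genes tested) and 1, Aldh1l1, with DESeq2 (0.578%). Groups without overlap were seen for 1 of 10 genes on the higher side, against 2.17% of all genes tested, and for 0 of 10 on the lower side, against 1.87%. Their median log2 fold change was -0.06, beside -0.02 over all genes tested.

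The other genes of the pathway came from a list by function of 59 genes, of which 50 had enough counts to be tested. In edgeR 0 of 50 passed the adjusted threshold, as with DESeq2 and limma, and 2 were higher and 2 lower at an unadjusted P under 0.05. These shares were near the background of 5.33% and 3.05%. Their median log2 fold change was -0.03.

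Folate uptake and retention held 5 tested genes, with 0 higher and 1 lower at the unadjusted threshold. That gene was Slc25a32, the mitochondrial folate carrier, at 1.48, 3.04, 0.879 and 4.76 CPM in controls and 1.26, 0.737, 0.649 and 0.565 in KO. The groups overlapped through control replicate 3, and the values rested on 15 to 114 counts a library (log2 fold change -1.67, SE 0.52, unadjusted P = 0.00988 and adjusted P = 0.518 by edgeR). Slc19a1, the reduced folate carrier, averaged 56.3 ± 5.44 and 50.7 ± 7.70 CPM (SD, n = 4) and was not called.

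Of 8 genes for other folate interconversions, 0 were called in either direction, with 6 of 8 log2 fold changes positive (4 of 8 without control replicate 1) and a median of 0.06 (0.03). Mthfd1l, the mitochondrial formate-producing synthetase, averaged 22.4 ± 1.89 and 24.6 ± 3.62 CPM (SD, n = 4).

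In the methionine cycle and transsulfuration, 1 of 11 tested genes was higher and 1 lower at the unadjusted threshold. Mat2a, which makes the methyl donor S-adenosylmethionine, was 18.2, 19.6, 13.8 and 9.86 CPM in controls and 25.5, 23.0, 18.8 and 39.8 in KO. KO replicate 4 was the highest, and KO replicate 3 lay below control replicate 2 (log2 fold change 0.80, SE 0.27, adjusted P = 0.518 by edgeR). Mtr, the methionine synthase that takes the methyl group from folate, was 19.2, 24.0, 21.7 and 19.6 CPM in controls and 17.0, 18.5, 19.21 and 15.7 in KO. The 4 KO values all lay below the 4 controls, KO replicate 3 by a margin in the second decimal (19.21 against 19.22), and the adjusted P was 0.584 by edgeR. Its reductase Mtrr averaged 20.9 ± 1.28 and 18.4 ± 2.09 CPM (SD, n = 4) and was not called.

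Serine and glycine use and transport had 8 tested genes, of which 1 was higher and 0 lower at the unadjusted threshold and 6 had a positive log2 fold change. The gene called was Sptlc2, a subunit of the serine palmitoyltransferase that starts sphingolipid synthesis, at 114 ± 5.50 CPM in controls and 131 ± 8.91 in KO (SD, n = 4), a log2 fold change of 0.19 (SE 0.073, adjusted P = 0.548 by edgeR). The unadjusted call was lost in the blocked edgeR fit. Its partner Sptlc1 averaged 67.4 ± 3.36 and 71.4 ± 4.77 CPM and was not called. In glycine cleavage and choline breakdown 0 of 6 genes were called. Gcsh, the lipoyl carrier of the glycine cleavage system, averaged 56.5 ± 5.12 and 49.9 ± 4.45 CPM.

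Purine synthesis, which consumes formyl-tetrahydrofolate at the steps of Gart and Atic, had small differences between genotypes. All 12 genes on its list were tested, 0 were called at the unadjusted threshold, and 12 of 12 had a negative log2 fold change with a median of -0.09, beside -0.02 and 53.9% negative over all genes tested. Leaving out 1 library at a time left 10 to 12 of the 12 negative, and limma on FPKM left 11. The median then ran from -0.14 (without KO replicate 1) to -0.06 (without control replicate 3). With same-numbered libraries fitted as blocks, Prps2 and Pfas were called at the unadjusted threshold by edgeR (adjusted P = 0.364 and 0.407). Prps2, which makes the ribose donor, averaged 99.0 ± 12.3 and 86.2 ± 6.45 CPM (SD, n = 4), Pfas 70.7 ± 4.54 and 62.1 ± 6.85, and Ppat, the first committed enzyme, 43.4 ± 3.39 and 38.7 ± 4.61. The summed levels of 10 proliferation markers, at 1915 to 2347 CPM in controls and 1771 to 2290 in KO, overlapped.

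Of the 27 ATF4 response genes, 2 were higher, 0 lower at the unadjusted threshold, and 0 passed the adjusted one with edgeR, DESeq2 or limma. Aars, alanyl-tRNA synthetase, averaged 105 ± 6.10 CPM in controls and 122 ± 9.33 in KO (SD, n = 4), a log2 fold change of 0.21 (SE 0.077). Trib3, a stress-induced pseudokinase, averaged 1.47 ± 0.405 and 2.80 ± 1.47 CPM, with KO replicate 3 the highest at 4.76, and its unadjusted call was lost in the blocked edgeR fit. That fit called 3 of 27, with Nars, asparaginyl-tRNA synthetase, among them. The median over the list was -0.00 on the log2 scale.

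**Figure D4:**
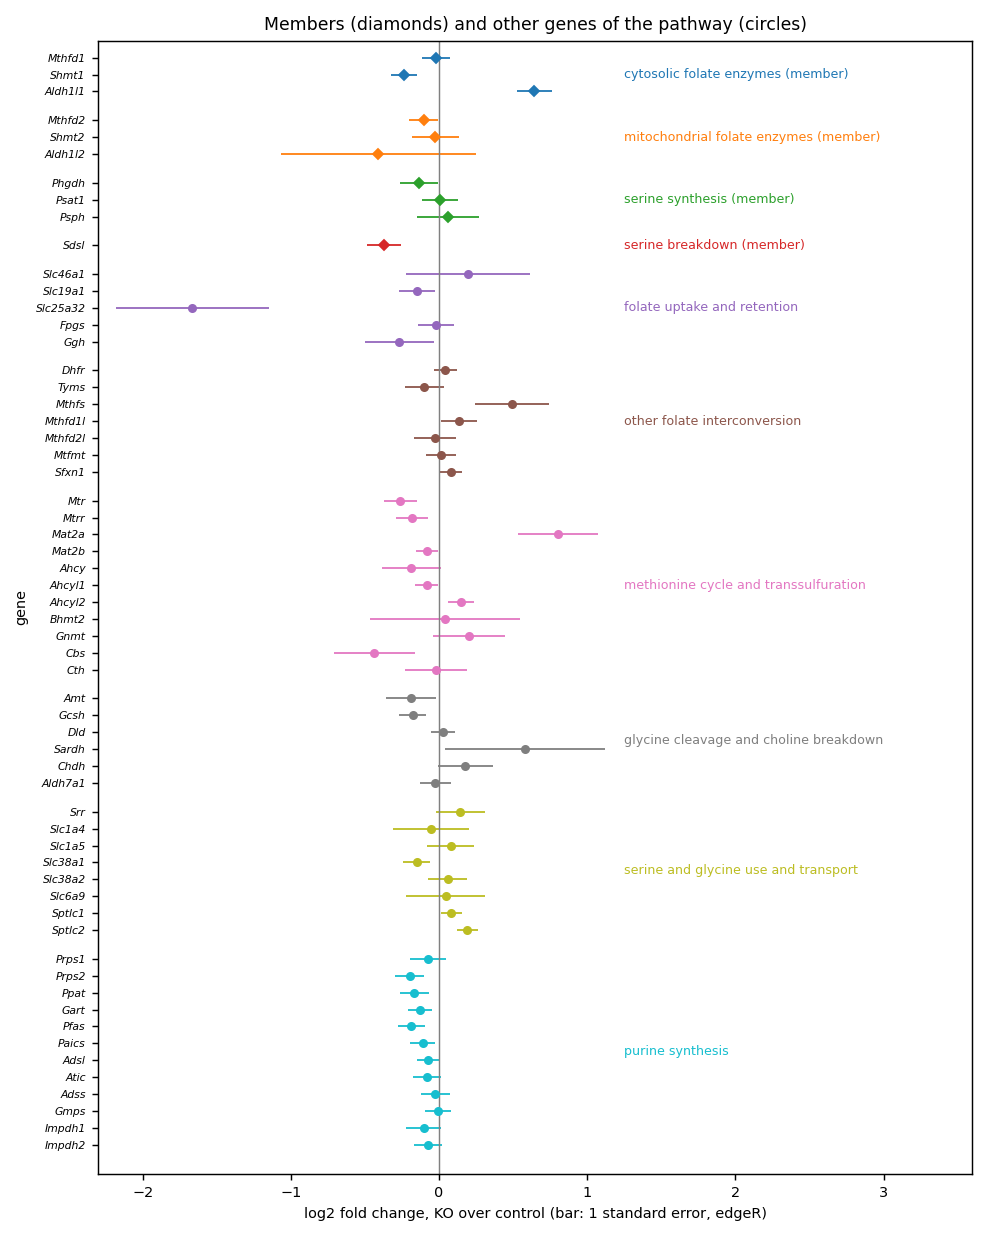
Log2 fold change of KO over control with 1 standard error (edgeR) for the 10 chosen genes (diamonds) and 49 of the 50 other pathway genes tested (circles), grouped by function. Aldh1l1 lies at 0.64, Slc25a32 at -1.67 and Mat2a at 0.80, and the 12 purine synthesis genes all lie left of 0 at a median of -0.09.

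The high and low pairs seen in Shmt2 lay along the split between the 4 libraries with Y transcripts and the 4 with Xist. Since the split was followed because Shmt2 had shown it, the values are a description with no test. It divides replicate numbers 1 and 2 from 3 and 4, so where same-numbered libraries are taken as pairs it rests on 2 numbers against 2. Shmt2 averaged 125 ± 9.91 CPM in the Y libraries and 95.1 ± 8.90 in the Xist libraries (SD, n = 4), without overlap. Mthfd2 went the same way, at 41.9 ± 3.68 and 36.4 ± 1.84 CPM without overlap, as did Psph, at 10.7 ± 1.27 and 7.88 ± 1.24 CPM with overlap. Aldh1l1 (71.1 ± 15.1 and 78.0 ± 26.0 CPM), Shmt1 (146 ± 15.9 and 148 ± 21.9) and Sdsl (50.3 ± 7.73 and 51.4 ± 11.1) overlapped. The share of all genes tested without overlap along this split is not given here. Whether Shmt2 and Mthfd2 stand out among all genes therefore cannot be told.

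The values of 5 circadian clock genes, named after their values were seen, were set beside this split, again with no test. Dbp, a clock output factor, was 1.01 to 2.45 CPM in the Y libraries and 10.6 to 14.2 in the Xist libraries. Tef averaged 12.4 and 61.2 CPM, Per3 9.17 and 20.5, and Nr1d1 28.3 and 76.9, with 60.8 CPM of Nr1d1 in control replicate 1 close to the 69.6 to 89.5 of the Xist libraries. Arntl, which peaks opposite to them, averaged 54.9 and 27.7 CPM. All 5 were without overlap. The Y and Xist split and the levels of these clock genes fell on the same libraries and cannot be told apart here for Shmt2, Mthfd2 or Psph.

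**Figure D5:**
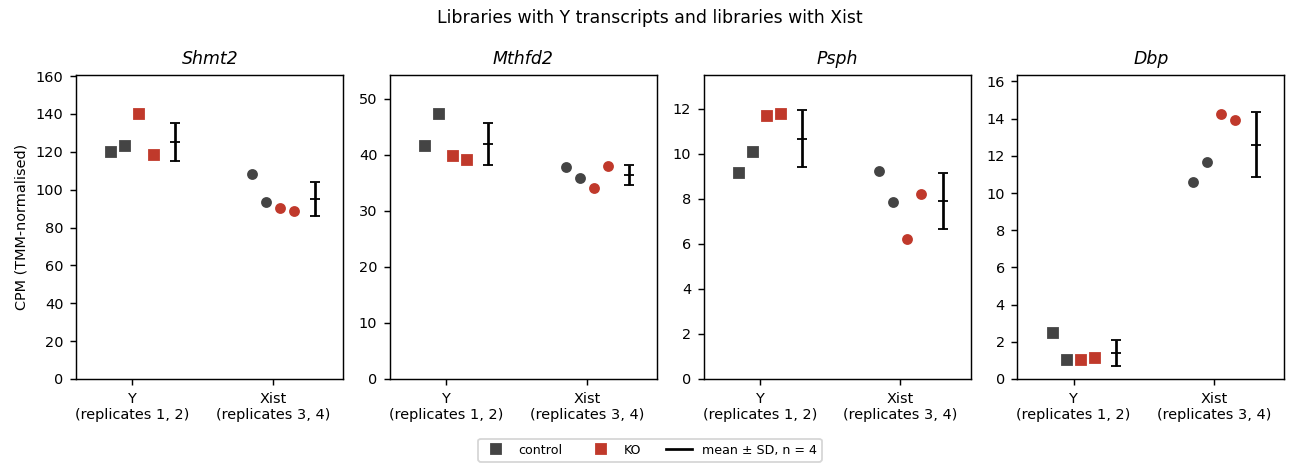
CPM of Shmt2, Mthfd2, Psph and the clock output gene Dbp in libraries with Y transcripts (replicates 1 and 2) and with Xist (replicates 3 and 4), grey for controls and red for KO, with bars for the mean ± SD of 4 mice and axes from 0. Shmt2 (125 against 95.1) and Mthfd2 (41.9 against 36.4) do not overlap between the groups, Psph does, and Dbp runs the opposite way.

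How the 10 genes varied together was described from their deviations from the genotype means over the 8 libraries. Of 45 pairs, 27 had a positive Pearson r, with a median of 0.11, beside 0.01 for all pairs of well-expressed genes. The most alike were Psph and Shmt2 (r = 0.863), Shmt2 and Mthfd2 (r = 0.705) and Psph and Mthfd2 (r = 0.693), the same 3 genes described above for the Y libraries. The lowest were Sdsl and Psat1 (r = -0.853), and Aldh1l1 with Mthfd1 (r = -0.769), Psph (r = -0.765) and Phgdh (r = -0.710). The 8 points of each pair share libraries and their depth, and no test was made. Among 9503 protein-coding genes with a mean log2 CPM of at least 3, those most like the mean of the 10 genes were Mrpl48 (r = 0.988), Dhx15 (r = 0.985), Gm4737 (r = 0.984), Surf6 (r = 0.976) and Sf3b3 (r = 0.967), over the same 8 libraries.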

How the data were processed

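Crypt RNA of 4 KO and 4 control mice had been sequenced on an Illumina NovaSeq instrument. The submitters' processing notes name CASAVA, HISAT2 2.0.5 and featureCounts 1.5.0-p3, and the genome build is not given in the sources used here. Coordinates in the table matched GENCODE M21 (GRCm38) for 54123 of 55114 genes and for all 10 chosen genes. The authors deposited raw counts per gene and library, with no normalization. The authors also deposited FPKM values, which equalled counts divided by the deposited gene length and 1 factor per library (largest relative spread 9.99e-15), within 0.9997 to 1.015 of the library sizes used here. Deposited columns of fold changes, P values and adjusted P values, and the authors' list made from them, hold their DESeq2 comparison and were not used.

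Genes were kept by filterByExpr (minimum count 10), scaled by trimmed mean of M values and tested for genotype with edgeR 4.0.16 (quasi-likelihood, residual degrees of freedom 6). P values were adjusted by Benjamini-Hochberg over 16109 genes, at a threshold of 0.05. FPKM ratios within mice used a pseudocount of 0.1. The alternatives were DESeq2 1.42.0 and its size factors, no filter, at least 10 counts in each library, the replicate number as a block, an Xist and Y covariate, limma 3.58.1 on log2(FPKM + 1), and leaving out each of the 8 libraries. The edgeR fits with and without the block, the DESeq2 fit and the limma fit were tested on simulated counts. Total counts of 20324184 to 30654105 a library set the counting noise only. P values of the genotype fits weigh a difference against the spread between these mice.

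Same-numbered libraries of both genotypes deviated together (r = 0.129, 0.501, 0.141 and 0.294 for numbers 1 to 4 over all genes), so the numbers were treated as pairs in the block. Over autosomal genes r was 0.0913, 0.4735, 0.0900 and 0.248. Libraries with different numbers were not correlated, so pairing by number and a shared Y or Xist status cannot be told apart here. The labels do not say what a number shares. Beside the 10 genes and Mex3a, at most 3 genes per pathway list were given with values in the text, those with the smallest unadjusted P, and markers were given as sums. The same rule named Aars, Trib3 and Nars of the ATF4 list. Outside this rule, Nupr1, Chac1 and Pck2 were picked for their values in control replicate 1, and the clock genes after their values were seen. The values of 1 pathway gene are not reported here. The members and all lists were chosen with earlier results of these data known. Promoters came from RefSeq and 3′ UTRs from GENCODE M21.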

Additional observations from a re-analysis of the deposited data

Results flagged for a closer look

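In 4 of 96 groups of 4 libraries examined, 1 library lay far from the other 3 by Dixon's gap test, and chance alone flags about 1 in 20. Phgdh was 45.7 CPM in control replicate 3 and 37.3 to 37.5 in the other controls. Pfas, an enzyme of purine synthesis, was 63.9 CPM in control replicate 4 and 72.4 to 73.5 in the other controls. The summed goblet cell markers were 5636 CPM in KO replicate 1 and 7675 to 8079 in the other KO libraries. The summed B and plasma cell markers were 73.7 CPM in control replicate 4 and 36.1 to 41.1 in the other controls.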

How the results depend on the processing

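The log2 fold changes of the 10 genes moved by less than 1 SD between replicates in 150 of 150 values under 15 other settings. That limit is wide, since leaving out 1 library of a group can hardly move its mean so far. Aldh1l2 stayed within it while going from -0.41 to 0.55 without control replicate 1, so the tally does not show stability. Shmt1, Aldh1l1, Mthfd2, Phgdh and Sdsl kept their sign in all 15, though Mthfd2 ran from -0.16 to -0.02 and Phgdh from -0.22 to -0.05, while that of Mthfd1 (2 settings), Shmt2 (4), Aldh1l2 (2), Psat1 (4) and Psph (3) changed in some. The 3 paralog ratios kept their direction and their side of the threshold with a pseudocount of 1, counts per kilobase and each library left out, though the size of Aldh1l1 over Aldh1l2 ran from 12.5-fold to 52.2-fold with the first 2 of these. The number of genes past the adjusted threshold, 1 in edgeR, was 93 with DESeq2, 2 with no filter, 0 with at least 10 counts in each library, 0 with the replicate block, 4 with the Xist and Y covariate, 2 with limma and 0 to 4 with 1 library left out; the cause was not tested. With the filter on each library Mex3a itself was removed. Genes at an unadjusted P under 0.05 numbered 1350, and 846 (without KO replicate 3) to 2133 (without KO replicate 1) with 1 library left out. The 4 other pathway genes at that threshold became 2 (without KO replicate 2) to 8 (without KO replicate 1). The Mex3a log2 fold change was -4.51 with the replicate block (adjusted P = 0.126) and -4.87 to -4.17 with 1 library left out, where the adjusted P reached 0.214 without control replicate 3. The replicate block changed no call among the chosen or other pathway genes at the adjusted threshold. At the unadjusted one it called the same number of chosen genes (3) and 5 of the 50 other pathway genes, with Prps2 and Pfas added and Sptlc2 lost. Aldh1l2 (17 to 176 counts a library) and Slc25a32 (15 to 114) rested on few counts.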
